A study of Mus musculus with 64 samples.

Results

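The 10 genes described here encode histone lysine demethylases, the enzymes that take methyl groups off histone tails. They are *Kdm1a*, *Kdm1b*, *Kdm3a*, *Kdm3b*, *Kdm4a*, *Kdm4b*, *Kdm4c*, *Kdm4d*, *Kdm5a* and *Kdm5b*, found by gene symbol among the 26385 genes of the RNA-seq tables, and each had a row in all 47 RNA-seq libraries. The study asked what the nuclear ATPase MORC1 does in the mouse male germ line, where transposons are silenced while DNA methylation is re-established before birth. Germ cells of Morc1 het and Morc1 KO males were sorted at E16.5 (2 and 2 libraries), E18.5 (2 and 2), P2.5 (3 and 2) and P10.5 (4 and 3). Whole testis came from P10.5 Morc1 WT (1), het (2) and KO (3) males, P14.5 Morc1 het (3) and KO (3) males, P10.5 DNMT3L WT, het and KO males (3 of each), P10.5 Miwi2 het and Miwi2 KO males (2 of each), and a preliminary pair of P10.5 Morc1 WT and het males. Each library was made from 1 mouse.

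Morc1 KO animals are homozygous for Morc1tg, a tyrosinase transgene insertion on the FVB/N background that removed part of *Morc1*, so reads on its remaining exons are still counted. The E16.5 to P2.5 animals carried an Oct4-IRES-Gfp reporter on a mixed background, in het and KO alike, and their germ cells were taken as GFP-positive cells. The P10.5 germ cells were instead gated as low side scatter, EPCAM-high and H2-Kq-negative, so the last step of the stage series also changed the sort. The methods give the reporter cross for E16.5 to P2.5 only, so that step may also have changed the strain background. DNMT3L is the catalytically inactive partner of the germ line's DNA methyltransferases, and Miwi2 (*Piwil4*) is the nuclear Piwi protein that carries piRNAs. No strain was found for those lines in the sources read, and their mutants were compared with controls of their own line.

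Histone lysine methylation marks the state of chromatin, with methyl groups on H3K4 found at active promoters and enhancers and those on H3K9 at silenced repeats and genes. The KDM1 enzymes (KDM1A, also called LSD1, and KDM1B, also called LSD2) are FAD-dependent amine oxidases that act on mono- and dimethylated H3K4, and KDM1B is known for the oocyte, where imprints depend on it. The other 8 are Jumonji-domain oxygenases that use iron and 2-oxoglutarate: KDM3 enzymes act on mono- and dimethylated H3K9, KDM4 enzymes on trimethylated H3K9 and, for KDM4A to KDM4C, H3K36, and KDM5 enzymes on di- and trimethylated H3K4.

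Sorted libraries held 2413679 to 14918478 reads on genes (median 7542692, 20 libraries) and testis libraries 22509570 to 42137954 (27 libraries). The sorted and testis libraries were made with different kits, and the deposited RPKM values (reads scaled by exon length and by the number of mapped reads) do not put them on 1 scale. Relative to the lowest library, sorted libraries had 1.31 to 1.90 mapped reads for each read counted on a gene, against 1.00 to 1.10 in testis libraries, so a like share of gene reads gives a lower RPKM in sorted cells. Levels below are RPKM, and log2 fold changes with their standard errors (SE) and adjusted p-values are from edgeR's quasi-likelihood test on the counts, scaled by TMM and adjusted by Benjamini-Hochberg over all genes tested, with 0.05 as the threshold. The targeted genes bore out the labels for Morc1 KO (*Morc1* at 9.72 against 44.5 RPKM in E16.5 germ cells, 2.26 against 7.65 in P10.5 testis) and DNMT3L KO (*Dnmt3l* at 0.0370 to 0.0464 against 0.374 to 1.02 RPKM). They did not for Miwi2, where *Piwil4* was higher in the libraries labelled Miwi2 KO (log2 difference 0.69, edgeR adjusted p = 0.000746). It was at 10.7 and 11.5 RPKM there and at 6.65 and 7.01 RPKM in Miwi2 het. The structure of the Miwi2 allele was not found in the sources read, and a disrupted allele can still give reads. These reads therefore neither bear out nor contradict the labels, and differences in that pair are given by its labels only. In P10.5 Morc1 het animals the sort left summed Sertoli cell markers at 77.0 to 128 RPKM against 3441 to 3715 in testis, Leydig cell markers at 2.56 to 3.96 against 275 to 282 and peritubular markers at 12.8 to 14.6 against 1289 to 1293, while 6 of 8 tested germ cell markers were higher in the sorted cells and none lower. Among the other marker lists in that comparison, the counts higher and lower were 7 and 0 of 10 for undifferentiated spermatogonia, 5 and 2 of 7 for differentiating spermatogonia, 11 and 0 of 12 for early meiosis, 4 and 1 of 10 for pachytene, 0 and 5 of 6 for endothelial, 1 and 8 of 9 for macrophage, 0 and 3 of 4 for blood, 2 and 0 of 2 for epididymis and 0 and 1 of 1 for fat markers.

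In Morc1 het germ cells both KDM1 genes, *Kdm3a* and *Kdm5b* fell from E16.5 to P10.5, *Kdm1b* by far the most. *Kdm1b* stood at 175 and 221 RPKM at E16.5, fell to 76.3 and 76.2 by E18.5, and was at 28.0, 23.4 and 30.4 at P2.5, and 17.5, 14.9, 15.3 and 13.7 at P10.5. No 2 stages overlapped, and each step down passed the test. The log2 change was -1.34 ± 0.13 (SE; edgeR adjusted p = 6.97e-06) from E16.5 to E18.5, -1.68 ± 0.12 (8.41e-08) from E18.5 to P2.5 and -0.54 ± 0.10 (0.000911) from P2.5 to P10.5, and -3.56 ± 0.11 (4.77e-12) over the whole interval. At E16.5 *Kdm1b* made up 41.4% ± 0.0632 (SD, n = 2) of the summed RPKM of the 10 genes, and at P10.5 11.3% ± 0.676 (SD, n = 4). The summed RPKM itself went from 477 ± 79.7 (SD, n = 2) at E16.5 to 317 ± 52.9 (n = 2), 181 ± 23.2 (n = 3) and 136 ± 6.16 (n = 4) at E18.5, P2.5 and P10.5. Relative mapped reads for each gene read were 1.35 and 1.61 in the E16.5 libraries and 1.67 to 1.81 in those of P10.5. A like share of gene reads thus gives a lower RPKM at P10.5, so part of this fall, and of the spread at E16.5, is a matter of scale.

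*Kdm1a*, the more widely expressed KDM1 gene and the catalytic subunit of CoREST complexes, was at 75.7 and 100 RPKM at E16.5, then at 55.4 and 44.7 at E18.5. It was at 27.7, 39.8 and 44.0 at P2.5, with the highest of the 3 just under the lower E18.5 library, and at 25.0 to 28.2 (4 libraries) at P10.5. It fell by 0.79 (SE 0.16, edgeR adjusted p = 0.00193) and 0.61 (SE 0.14, 0.00344) on the log2 scale in the first and second steps. The last step gave -0.21 ± 0.12 (0.205) with overlapping libraries, and without P2.5 het replicate 1, the lowest of its group, it was -0.37 (0.00956). Over the whole interval *Kdm1a* fell by 1.61 (SE 0.13, 6.18e-08). Of the H3K9 enzymes, *Kdm3a*, known for its part in packaging the chromatin of late spermatids, overlapped before birth, at 75.1 and 94.5 RPKM at E16.5 against 88.6 and 65.0 at E18.5 (log2 change -0.13, 0.63). It was then at 22.1, 32.8 and 33.3 RPKM at P2.5 and at 15.6 to 16.47 at P10.5, with no overlap between E18.5, P2.5 and P10.5. *Kdm3a* fell by 1.56 (SE 0.14, 6.51e-07) and then by 0.60 (SE 0.12, 0.00139) in those steps, and by 2.28 (SE 0.13, 1.48e-09) in all. Its paralogue *Kdm3b* stayed between 9.18 and 14.2 RPKM in every het germ cell library, and none of its steps passed the test (log2 -0.21 to -0.01). From E16.5 to P10.5 *Kdm3b* gave -0.26 (edgeR adjusted p = 0.089). It was called as lower with DESeq2 (-0.32, DESeq2 adjusted p = 0.0239) and with upper-quartile factors (-0.45, edgeR adjusted p = 0.00623).

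The annotated promoters of the 4 genes that were lower at P10.5 than at E16.5 are shown. The starts that germ cells use were not determined. *Kdm4d* is added for its rise alongside *Kdm3a* in the P14.5 testis. RefSeq promoters (GRCm38.p6) were at hand for 7 of the 10 genes, and the 250 bases before the start (for *Kdm3a*, the most upstream of its starts) read as follows, with motif letters in capitals.
Kdm1b, chr13:47043249-47043498, plus strand: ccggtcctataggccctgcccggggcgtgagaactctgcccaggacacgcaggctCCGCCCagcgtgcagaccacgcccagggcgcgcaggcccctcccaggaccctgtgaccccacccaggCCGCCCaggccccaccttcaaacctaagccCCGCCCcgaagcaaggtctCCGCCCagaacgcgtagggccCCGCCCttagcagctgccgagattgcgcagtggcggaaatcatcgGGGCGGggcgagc
Kdm1a, chr4:136602724-136602973, minus strand: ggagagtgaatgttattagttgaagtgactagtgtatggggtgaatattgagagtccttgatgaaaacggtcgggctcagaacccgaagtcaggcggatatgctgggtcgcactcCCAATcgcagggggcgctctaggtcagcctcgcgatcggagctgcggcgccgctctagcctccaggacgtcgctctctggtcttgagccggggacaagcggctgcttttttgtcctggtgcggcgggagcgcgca
Kdm3a, chr6:71632918-71633167, minus strand: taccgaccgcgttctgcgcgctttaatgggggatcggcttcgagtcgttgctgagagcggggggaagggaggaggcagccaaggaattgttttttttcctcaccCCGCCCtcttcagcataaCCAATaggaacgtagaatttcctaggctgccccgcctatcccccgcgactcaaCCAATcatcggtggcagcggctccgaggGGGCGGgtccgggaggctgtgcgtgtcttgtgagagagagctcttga
Kdm5b, chr1:134559928-134560177, plus strand: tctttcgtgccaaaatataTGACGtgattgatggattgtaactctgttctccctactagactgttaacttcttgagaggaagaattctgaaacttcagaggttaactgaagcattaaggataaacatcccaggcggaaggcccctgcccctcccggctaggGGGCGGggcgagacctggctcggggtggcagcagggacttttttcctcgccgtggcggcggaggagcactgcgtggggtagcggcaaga
Kdm4d, chr9:14500483-14500732, minus strand: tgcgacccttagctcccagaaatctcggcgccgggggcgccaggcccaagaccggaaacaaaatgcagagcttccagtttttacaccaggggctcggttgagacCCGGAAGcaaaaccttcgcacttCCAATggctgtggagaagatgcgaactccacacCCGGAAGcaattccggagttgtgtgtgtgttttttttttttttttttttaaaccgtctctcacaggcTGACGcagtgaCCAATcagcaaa
The capitals mark, on either strand, the GC box GGGCGG, the CCAAT box CCAAT, the cyclic-AMP response core TGACG, the E-box CACGTG and the ETS motif CCGGAAG, a choice made with these sequences in view. *Kdm1b* held 6 GC boxes and none of the other 4 motifs, at 71.6% G and C with 22 CpG dinucleotides, where the median of the 32851 promoters of this length was 52.4% with 6 CpG. *Kdm3a* held 2 GC boxes and 2 CCAAT boxes, *Kdm1a* 1 CCAAT box, and *Kdm5b* 1 GC box and 1 TGACG core. *Kdm4d* held 2 CCAAT boxes, 2 ETS motifs and 1 TGACG core. No motif match overlapped a match of another motif. The GC box was found in 32.7% of all these promoters, the CCAAT box in 33.8%, TGACG in 17.8%, the E-box in 6.02% and the ETS motif in 6.91%. No motif was shared by all 5 promoters, and the E-box was in none.

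Of the H3K4me3 demethylases, *Kdm5b* overlapped before birth, at 54.1 and 67.4 RPKM in the E16.5 libraries against 87.5 and 60.1 in those of E18.5. This step gave 0.29 ± 0.13 (edgeR adjusted p = 0.152), and it was called as a rise with DESeq2 (0.34, 0.032), with library sizes only (0.41, 0.0365) and without E18.5 het replicate 2 (0.43, 0.0477). At P2.5 it was at 35.1, 43.6 and 48.1, and at P10.5 at 31.2 to 34.9, below every earlier library in RPKM. The step from P2.5 to P10.5 did not pass the test. P10.5 het libraries had 1.67 to 1.81 relative mapped reads for each gene read, against 1.40 to 1.54 at P2.5, which lowers RPKM at P10.5. *Kdm5b* fell by 0.98 (SE 0.12, edgeR adjusted p = 1.67e-05) between E18.5 and P2.5, and by 0.73 (SE 0.11, 6.53e-05) from E16.5 to P10.5. *Kdm5a* went the other way at birth. Its levels were 15.7 and 20.7 RPKM at E16.5, then 18.46 and 13.2 by E18.5, 19.7, 26.6 and 25.0 at P2.5 and 18.8 to 21.6 at P10.5. The rise of *Kdm5a* from E18.5 to P2.5 was 0.42 ± 0.13 (0.0202), and the call was lost without E18.5 het replicate 2 (0.29, 0.154) or P2.5 het replicate 2 (0.30, 0.0793), with upper-quartile factors (0.33, 0.054) or with only these 2 stages in the fit (0.41, 0.112).

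In sorted het germ cells the KDM4 genes, the demethylases of H3K9me3, had the lowest mean levels of the 10. *Kdm4a* and *Kdm4c* dipped at P2.5. *Kdm4a* was at 6.06 and 6.96 RPKM at E16.5, then 6.77 and 4.32 by E18.5, 2.01, 3.02 and 1.92 at P2.5, and 4.56 to 5.17 at P10.5, so that all 3 P2.5 libraries lay under every other. *Kdm4a* fell by 1.41 (SE 0.25, edgeR adjusted p = 0.000431) from E18.5 to P2.5 and rose by 1.30 (SE 0.22, 0.000359) from P2.5 to P10.5. *Kdm4c* was at 3.27 and 3.12, then 5.19 and 3.01, then 2.18, 2.09 and 1.54, and last 3.84 to 4.89 RPKM at the 4 stages, again lowest at P2.5. *Kdm4c* fell by 1.25 (SE 0.29, 0.00318; 0.0766 when only these 2 stages entered the fit) and rose by 1.50 (SE 0.25, 0.00037). *Kdm4b* lay between 2.90 and 5.57 RPKM with no step past the test, at -0.67 ± 0.27 (edgeR adjusted p = 0.097), -0.02 ± 0.25 (0.965) and 0.46 ± 0.21 (0.109) in turn. Without P2.5 het replicate 1 its first step (-0.67, 0.0468) and its last (0.62, 0.0311) passed. *Kdm4d*, the shortest of the KDM4 enzymes and known mostly from testis, was at 0 to 1.28 RPKM in het germ cells, on 0 to 51 reads in any sorted library, and a count of 0 allowed up to 0.144 RPKM in E18.5 het replicate 2, 0.248 in P2.5 het replicate 1 and 0.244 in E18.5 KO replicate 1. Its changes were not detectable at this depth.

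**Figure D1:**
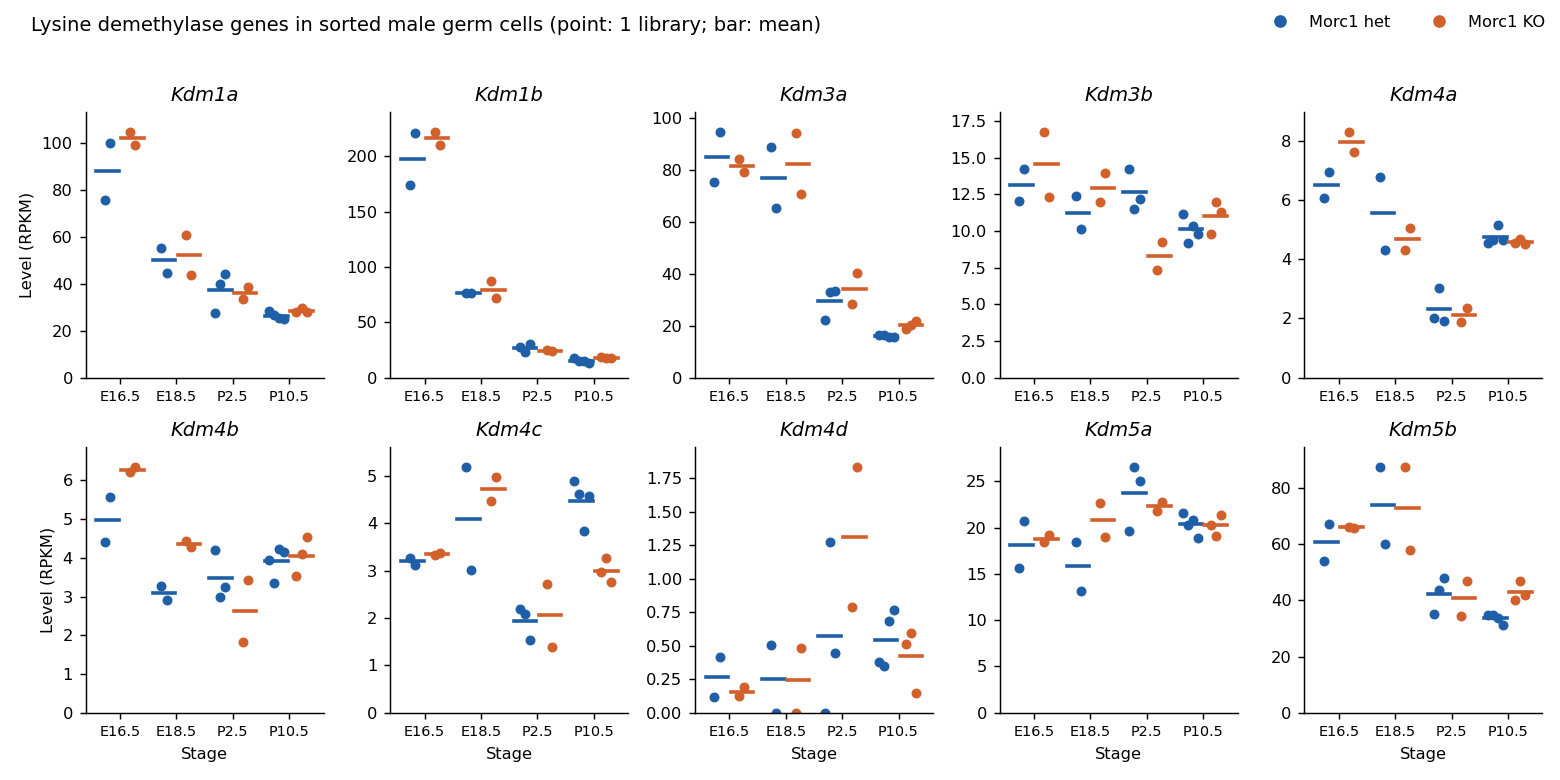
Level of each of the 10 genes (RPKM, linear axes from 0) in sorted germ cells at 4 stages, blue for Morc1 het and orange for Morc1 KO. Points are libraries and bars group means, and *Kdm1b* drops from 175 and 221 RPKM at E16.5 to 13.7 to 17.5 at P10.5 in het cells, while *Kdm4a* and *Kdm4c* are lowest at P2.5.

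Counted by step, 2 of the 10 genes were lower at E18.5 than at E16.5, where 18.7% of all genes tested passed the test and 1778 of the 16890 passed as lower. Between E18.5 and P2.5, 6 were lower and 1 higher, against 39.1% of all genes, 21% lower and 18.1% higher. Between P2.5 and P10.5, 2 were lower and 2 higher, against 27.6%, 14.2% lower and 13.4% higher. From E16.5 to P10.5, 4 were lower and none higher, against 50.7% of all genes called and 28.8% lower. With only these 2 stages in the fit *Kdm4c* (0.66, edgeR adjusted p = 0.00128) and *Kdm5a* (0.35, 0.000742) were called as higher and *Kdm3b* (-0.20, 0.045) as lower, and with library sizes only *Kdm4c* (0.74, 0.0305) and *Kdm5a* (0.44, 0.00676) were called as higher too. *Kdm3b* was also called as lower with DESeq2 and with upper-quartile factors, as given above. In that last comparison the median of all genes was at -0.18 with TMM, and the falls of 0.73 to 3.56 with TMM exceed it. Other scalings put the median between -0.37 and -0.03, and the sizes of the 4 falls under those scalings are not given here. Stage, sort and any difference in background cannot be told apart in the comparisons of P10.5 with an earlier stage. Beside these changes, summed endothelial markers went from 33.1 to 40.8 RPKM at E16.5 down to 2.73 to 3.59 at P10.5 (5 of 6 lower), Sertoli cell markers from 33.6 to 44.8 up to 77.0 to 128 (5 of 11 higher) and undifferentiated spermatogonia markers from 94.5 to 117 up to 164 to 183 (7 of 10 higher, 2 lower). Summed germ cell markers went from 837 to 1093 RPKM down to 430 to 521 (2 of 9 higher, 7 lower) and pachytene markers from 92.5 to 118 down to 44.4 to 50.4 (1 of 11 higher, 8 lower). Differentiating spermatogonia markers summed to 65.8 to 75.7 RPKM and early meiosis markers to 244 to 274 at E16.5. Both sums were higher at P10.5 without overlap, at the het values given below beside KO cells. Lists not named for a step are left out here. In the step from E16.5 to E18.5, germ cell markers went from 837 to 1093 down to 675 to 779 RPKM (2 of 9 higher, 4 lower) and undifferentiated spermatogonia markers from 94.5 to 117 up to 129 to 172 (6 of 10 higher, 1 lower). In the step from E18.5 to P2.5, undifferentiated spermatogonia markers went from 129 to 172 up to 381 to 476 RPKM (7 of 10 higher), differentiating spermatogonia markers from 49.8 to 89.1 up to 150 to 176 (3 of 7 higher, 1 lower) and early meiosis markers from 248 to 250 up to 327 to 426 (5 of 12 higher, 1 lower). Over that step pachytene markers from 88.0 to 90.8 down to 64.3 to 73.0 (4 of 11 lower), peritubular markers from 26.6 to 28.5 down to 10.1 to 14.3 (5 of 10 lower), endothelial markers from 35.2 to 41.0 down to 17.1 to 22.3 (3 of 6 lower) and blood markers from 25.1 to 32.3 down to 0.246 to 1.89 (2 of 4 lower), while germ cell markers overlapped (675 to 779 and 636 to 832). In the last step, from P2.5 to P10.5, undifferentiated spermatogonia markers went from 381 to 476 down to 164 to 183 RPKM (7 of 10 lower), germ cell markers from 636 to 832 down to 430 to 521 (1 of 9 higher, 4 lower), endothelial markers from 17.1 to 22.3 down to 2.73 to 3.59 (4 of 6 lower) and Sertoli cell markers from 33.9 to 37.1 up to 77.0 to 128 (5 of 11 higher). Of the 8 Leydig cell markers, *Insl3*, a defining Leydig cell gene, was at or near 0. The summed list was at 7.09 to 7.83 RPKM at E16.5 and 5.41 to 6.94 at E18.5. It was lower at P10.5, at the values given above for the sort. The part of these cell types in the result was not tested.

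The order of the genes by RPKM turned over with age. At E16.5 it ran *Kdm1b*, then *Kdm1a* and *Kdm3a* (which overlapped), *Kdm5b*, *Kdm5a*, *Kdm3b*, *Kdm4a*, *Kdm4b*, *Kdm4c* and *Kdm4d*, with no overlap between the other neighbours in 2 libraries. At E18.5 the first 3 places went to *Kdm3a*, *Kdm1b* and *Kdm5b*, which did not differ beyond their spread. At P2.5 *Kdm5b*, *Kdm1a*, *Kdm3a*, *Kdm1b* and *Kdm5a* each overlapped the next. By P10.5 *Kdm5b* led (33.7 ± 1.69 RPKM, SD, n = 4), above *Kdm1a* (26.4 ± 1.42) and *Kdm5a* (20.4 ± 1.17). *Kdm3a* (16.0 ± 0.435) and *Kdm1b* (15.4 ± 1.62) overlapped behind them, then came *Kdm3b* (10.1 ± 0.849), and *Kdm4c* (4.48 RPKM) overlapped both *Kdm4a* (4.76) and *Kdm4b* (3.92), which did not overlap each other.

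Other genes of the pathway moved in both directions over the same interval. Of 17 further members of the demethylase family, 5 were higher and 7 lower at P10.5 than at E16.5, with a median log2 change of -0.14 beside -0.18 for all genes. The counts in this paragraph stand beside 50.7% of all genes called in that comparison, 28.8% of all genes as lower. *Kdm6b*, an H3K27 demethylase, rose from 25.9 to 68.2 RPKM (1.50 ± 0.14, edgeR adjusted p = 3.83e-07), and *Phf2*, an H3K9 demethylase, fell from 11.3 to 3.39 RPKM (-1.62 ± 0.16, 5.83e-07). The other named rises were *2410016O06Rik* (2.65) and *Kdm5d* (1.38), and the other falls *Hr* (-1.80) and *Mina* (-1.10). Of 15 genes listed under H3K4 methyltransferase families and complexes, not all of them complex subunits, 8 were higher and 4 lower (median 0.64). The largest rises without overlap were *Mll5* (2.56), *Prdm9* (1.96), the meiotic H3K4 methyltransferase, and *Men1* (1.85), and the falls *Ash2l* (-1.42), *Wbp7* (-0.79) and *Cxxc1* (-0.40). Of 15 proteins that partner demethylases, 7 were higher and 4 lower (median 0.29). The largest rises without overlap were *Hmg20b* (2.77), *Ncor1* (1.72) and *Sin3b* (0.85), and *Hdac2* (-1.46) and *Phf21a* (-1.31) were among the falls. *Rcor1*, the CoREST subunit that holds KDM1A to the nucleosome, fell from 5.62 to 1.39 RPKM (-1.89 ± 0.23, 4.88e-06), and *Glyr1*, the nucleosome-binding partner of KDM1B, fell at the first step from 101 to 52.1 RPKM (-0.93 ± 0.11, 2.9e-05).

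Over the 20 sorted libraries, which share the stage series, 2 genotypes and 2 sorts, the levels of *Kdm1a* and *Kdm1b* correlated at r = 0.97, *Kdm1b* and *Kdm3a* at 0.93, *Kdm3a* and *Kdm5b* at 0.92 (log2 of RPKM with 0.1 added). Among 12870 other genes, those most like *Kdm1b* were *Mtor* (r = 0.99) and *Tdrd9* (0.98), those most like *Kdm1a* *Spna2* (0.98) and *Mtor* (0.98), those most like *Kdm3a* *Sbno1* and *Pabpc1* (both 0.99), and among those most like *Kdm5b* was *Nsg2* (0.96). The closest genes were less alike for *Kdm4a* (*Zscan5b*, 0.93, and *Bcl6*, 0.92), *Kdm4c* (*Nhsl2*, 0.84, among them), *Kdm5a* (*2900097C17Rik*, 0.88, and *4632404H12Rik*, 0.87), *Kdm4b* (*Nsd1* and *1700012A16Rik*, both 0.87), *Kdm3b* (*Hs1bp3*, 0.84, and *Nfil3*, 0.83) and *Kdm4d* (*Gstm4*, 0.83, and *Rnf141*, 0.83). These values describe the stage series and carry no test.

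At P10.5 the 10 genes were unequally placed in germ cells and whole testis of Morc1 het animals. *Kdm1b* was at 13.7 to 17.5 RPKM in 4 sorted libraries and 14.1 and 12.8 RPKM in 2 testis libraries, and *Kdm5a* at 18.8 to 21.6 against 19.8 and 17.3 RPKM. These RPKM ranges overlap, but on the counts scaled by TMM both were higher in the sorted cells, by 0.86 ± 0.10 (edgeR adjusted p = 8.14e-07) and 0.82 ± 0.08 (2.53e-07) on the log2 scale. Among the KDM4 genes, *Kdm4a* was at 4.56 to 5.17 against 25.9 and 27.6 RPKM (log2 -1.81 ± 0.09, 6.51e-11). *Kdm4b* was at 3.36 to 4.24 against 20.2 and 20.4 RPKM (-1.70 ± 0.11, 6.7e-10). The sorted libraries of both lay far under the testis libraries. *Kdm3b* (10.1 against 25.8 RPKM, -0.68 ± 0.08), *Kdm1a* (26.4 against 57.4 RPKM, -0.44 ± 0.08), *Kdm5b* (33.7 against 69.0 RPKM, -0.36 ± 0.08) and *Kdm4c* (4.48 against 8.77 RPKM, -0.29 ± 0.12, 0.0413) were also lower in the sorted cells.

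In all, 2 of the 10 were higher in germ cells and 6 lower, where 77.7% of all genes passed, 37.2% as higher and 40.5% as lower. The calls of *Kdm5b* and *Kdm4c* depended on the scaling: with upper-quartile factors, which move the median of all genes from -0.02 to 0.19, *Kdm5b* was at -0.15 (0.0935) and *Kdm4c* at -0.08 (0.547). The *Kdm4c* call was also lost with library sizes only (-0.18, 0.182), with DESeq2 (-0.30, 0.0549) and in 4 of 6 fits that each left out 1 library, without sorted replicate 1 (0.0504) or 3 (0.0807) or testis replicate 2 (0.184) or 3 (0.0861). *Kdm3a* gave 0.09 (0.328) and was called as higher with library sizes only (0.20, 0.0336) and with upper-quartile factors (0.30, 0.00371). *Kdm4d* gave 0.53 ± 0.46 (0.3). Tissue, sort and library kit cannot be told apart here. Among the further family members 8 of 17 were higher in germ cells (*Kdm6b* by 2.47) and 6 lower (*Kdm5c* by -1.81). Of the H3K4 methyltransferase list 11 of 15 were higher (*Mll2* 2.45, *Mll1* 2.36, *Mll3* 2.15) and 2 lower. Of the partners 5 of 15 were higher and 8 lower, *Rcor1* (-2.95) among the lower.

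**Figure D2:**
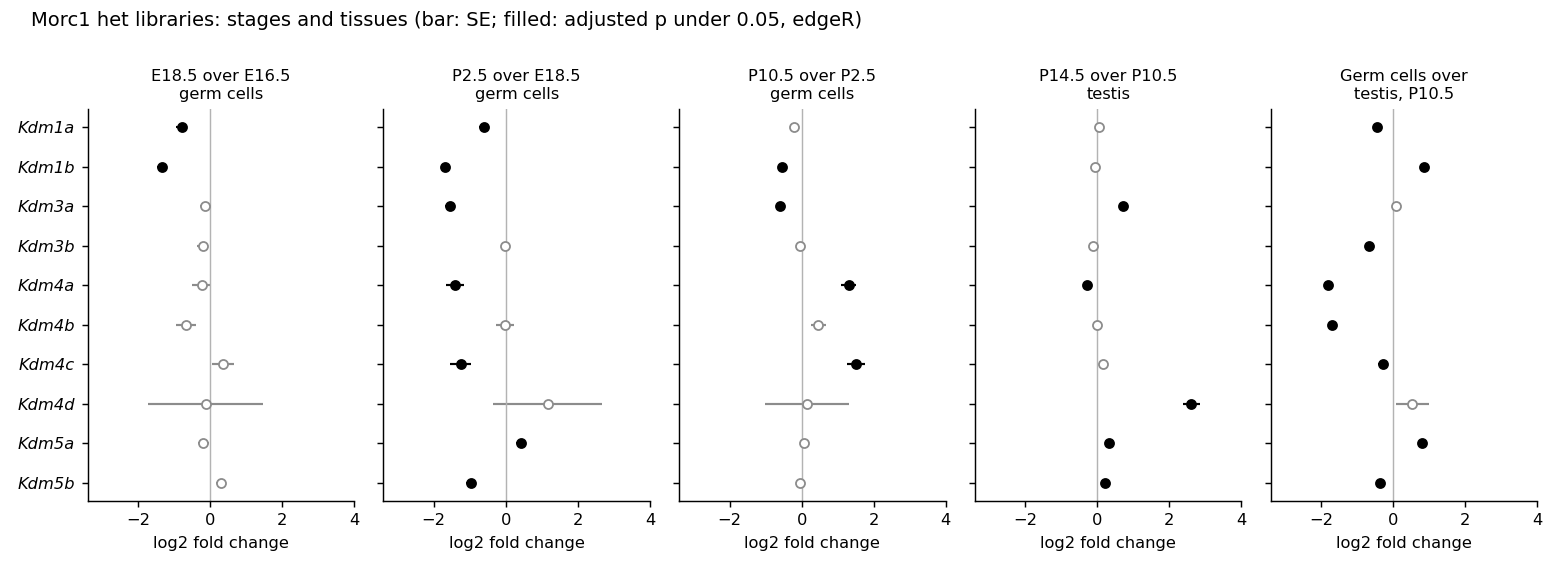
log2 fold change (horizontal axis) of each gene between successive germ cell stages, between testis ages and between germ cells and testis, all in Morc1 het animals. Bars are SE and filled points have an edgeR adjusted p under 0.05, and the second panel holds 6 filled points to the left of 0 and 1 to the right.

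The comparison of Morc1 KO with het germ cells asks whether the loss of MORC1 moves these genes, and no member passed the test at E16.5, E18.5 or P2.5. At E16.5, 9 members could be tested, their log2 differences ran from -0.13 to 0.26, and none passed at an unadjusted p under 0.05 or with DESeq2, where 0.421% of all genes were called by edgeR. At E18.5 the 9 tested members ran from -0.09 to 0.62, against 0.0416% of all genes called. *Kdm5a*, at 22.7 and 19.0 against 18.46 and 13.2 RPKM, was the 1 member at an unadjusted p under 0.05 (0.52 ± 0.17, edgeR adjusted p = 0.676) and the 1 member called by DESeq2 (adjusted p = 0.0265). At P2.5 all 10 were tested and none was called, against 0.0486% of all genes. *Kdm3b*, at 7.37 and 9.25 against 11.5 to 14.2 RPKM, was the 1 member at an unadjusted p under 0.05 (-0.63, edgeR adjusted p = 0.968), and DESeq2 called none. Summed undifferentiated spermatogonia markers at E18.5 were at 69.0 to 123 RPKM in KO against 129 to 172 in het cells. Pachytene markers there were at 61.5 to 86.0 against 88.0 to 90.8. Blood markers at E16.5 were at 36.8 to 40.8 against 7.70 to 23.7, and early meiosis markers at 284 to 305 against 244 to 274. Other lists are left out for these stages, and the part of cell composition was not tested.

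At P10.5, *Kdm3a* and *Kdm5b* were higher and *Kdm4c* lower in Morc1 KO germ cells, with no overlap in RPKM between 4 het and 3 KO libraries. Relative mapped reads for each gene read were 1.67 to 1.81 in het and 1.56 to 1.69 in KO libraries. A like share of gene reads thus gives a higher RPKM in KO cells. The share of all genes without overlap was not worked out for this comparison. *Kdm5b* was at 34.8, 34.9, 33.9 and 31.2 RPKM in het cells and at 40.1, 46.9 and 42.1 in KO cells, a log2 difference of 0.27 ± 0.07 (edgeR adjusted p = 0.0111; 0.0693 without KO replicate 2). *Kdm3a* was at 16.3, 16.47, 15.6 and 15.7 RPKM in het and 18.8, 20.2 and 21.9 in KO cells (0.27 ± 0.08, 0.0325), and its call did not hold without KO replicate 3 (0.18, 0.2) or without het replicate 1 (0.109), 3 (0.0991) or 4 (0.0693), nor with library sizes alone (0.0732). *Kdm4c* was at 4.89, 4.61, 3.84 and 4.57 RPKM in het and 2.97, 3.27 and 2.75 in KO cells. Its fall of 0.66 on the log2 scale (SE 0.14, 0.00222) was the largest of the 3. The other 7 genes ran from -0.45 to 0.15, with adjusted p-values of 0.269 to 0.933.

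The 3 calls among 10 stand beside 12.2% of all genes called at P10.5, 6.43% higher and 5.79% lower. Summed early meiosis markers were at 282 to 303 RPKM in KO against 325 to 371 in het cells (7 of 12 lower, none higher), undifferentiated spermatogonia markers at 215 to 266 against 164 to 183 (6 of 10 higher, none lower), differentiating spermatogonia markers at 126 to 143 against 159 to 188 (1 of 7 higher, 4 lower), pachytene markers at 54.9 to 59.7 against 44.4 to 50.4 (1 of 10 higher, none lower) and Sertoli cell markers at 50.3 to 103 against 77.0 to 128 (4 of 11 lower). *Adam2*, a pachytene marker, was at or near 0. The part of cell composition was not tested, and in bulk samples fewer cells of a type cannot be told apart from less RNA per cell. No member's Morc1 effect at P10.5 differed from that at E16.5 by edgeR's interaction test, against 1.71% of all genes. In it 2 members had an unadjusted p under 0.05 and DESeq2 called 1, *Kdm3a* (0.40, edgeR adjusted p = 0.104, DESeq2 0.0278). Of the 17 further family members 1 was higher in P10.5 KO germ cells (*Jmjd6*, 0.38) and 4 lower, among them *Hr* (-1.52), *Kdm6a* (-0.36) and *Phf8* (-0.34). Of the H3K4 methyltransferase list 2 of 15 were lower, *Prdm9* (9.19 to 3.69 RPKM, -1.39), which is also an early meiosis marker, and *Mll5* (-0.46), and of the partners none of 15 was called.

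In whole testis of the Morc1 line *Kdm4b* was the 1 member called at P10.5, and 6 were called at P14.5. At P10.5 *Kdm4b* was at 22.6, 23.4 and 22.2 RPKM in KO against 20.1 (WT), 20.2 and 20.4 (het), a log2 difference of 0.19 ± 0.05 (edgeR adjusted p = 0.0236), where 15.3% of all genes passed and 6.08% passed as higher. That call was lost without WT replicate 1 (0.0762), het replicate 3 (0.0906), KO replicate 2 (0.082) or KO replicate 3 (0.0696). *Kdm5a* was at 16.7, 13.9 and 14.498 RPKM in KO against 17.1 to 19.8 in controls, all below, at -0.25 ± 0.08 (0.0514; DESeq2 0.0202; 0.0173 without KO replicate 1). *Kdm4a* was at 28.0, 29.7 and 30.6 against 25.9 to 27.6 RPKM, all above, at 0.16 ± 0.05 (0.0658; 0.0328 without KO replicate 1).

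From P10.5 to P14.5 the first spermatocytes of the prepubertal wave advance through meiotic prophase. In het testis *Kdm4d*, *Kdm3a*, *Kdm5a* and *Kdm5b* rose over this interval, *Kdm4d* the most of the 10, and *Kdm4a* fell. *Kdm4d* was at 0.691 and 0.507 RPKM in the 2 P10.5 het libraries and at 3.79, 2.92 and 4.53 RPKM at P14.5 (297, 247 and 333 reads), with no overlap. The log2 rise of *Kdm4d* was 2.61 ± 0.24 (edgeR adjusted p = 5.31e-05). *Kdm3a* rose from 25.3 and 22.8 to 40.3, 35.8 and 44.2 RPKM (0.72 ± 0.10, 0.000328), *Kdm5a* from 19.8 and 17.3 to 24.2, 23.3 and 23.1 RPKM (0.32 ± 0.07, 0.0045) and *Kdm5b* from 73.8 and 64.3 to 81.8, 78.7 and 81.6 RPKM (0.21 ± 0.07, 0.0377). *Kdm4a* fell from 25.9 and 27.6 to 23.8, 21.6 and 21.5 RPKM (-0.28 ± 0.06, 0.00451). The *Kdm5b* call was lost without P10.5 het replicate 3 (0.202), P14.5 het replicate 1 (0.07) or 3 (0.0863), and with the preliminary het library added (78.4 RPKM, 0.117).

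Thus 4 members were higher and 1 lower at P14.5, against 51.4% of all genes called, 25.4% higher and 26% lower. *Kdm3a* took the third place in the order by RPKM at P14.5, behind *Kdm5b* and *Kdm1a*, where at P10.5 *Kdm3b* had overlapped both *Kdm4a* above it and *Kdm3a* below it. The same comparison moved all 12 early meiosis markers up (from 161 and 161 to 492 to 651 RPKM in sum), 9 of 12 pachytene markers up (56.5 to 60.3 against 175 to 332) and 8 of 11 Sertoli cell markers down with 2 up (3441 to 3715 against 3295 to 3636 RPKM). Summed germ cell markers were also higher at P14.5, without overlap, and the other marker lists are not given here. The part of these cell types in the rises and the fall was not tested. Of the further family members 4 of 17 were higher and 5 lower (*Kdm5d*, from the Y chromosome, -0.71), of the H3K4 methyltransferase list 5 of 15 higher (*Prdm9* 1.60) and 3 lower, and of the partners 2 of 15 higher and 5 lower.

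In P14.5 Morc1 KO testis *Kdm4d*, *Kdm3a*, *Kdm5a* and *Kdm5b* were lower than in het testis and *Kdm4a* and *Kdm4b* higher. *Kdm4d* was at 0.871, 0.820 and 0.705 RPKM (70, 63 and 50 reads) in KO against 2.92 to 4.53 RPKM in het testis, beside 0.430, 0.367 and 0.368 RPKM in the P10.5 KO libraries. The log2 difference at P14.5 was -2.22 ± 0.20 (edgeR adjusted p = 0.000144). *Kdm3a* was at 24.1, 23.2 and 24.6 against 35.8 to 44.2 RPKM (-0.74 ± 0.08, 0.000379). *Kdm5a* was at 19.3, 15.9 and 18.4 against 23.1 to 24.2 RPKM (-0.39 ± 0.07, 0.00295), and *Kdm5b* at 64.8, 62.2 and 66.8 against 78.7 to 81.8 RPKM (-0.31 ± 0.05, 0.00288). In these 4 genes every KO library lay under every het library.

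The higher members were KDM4 genes. *Kdm4a* was at 27.6, 26.4 and 27.2 against 21.5 to 23.8 RPKM (0.29 ± 0.06, edgeR adjusted p = 0.00435). *Kdm4b* was at 23.8, 24.8 and 22.6 against 19.6 to 21.1 RPKM (0.23 ± 0.06, 0.0142), a call lost without het replicate 1 (0.0561) or het replicate 3 (0.0572). *Kdm1a* (-0.11, 0.128), *Kdm1b* (0.15, 0.205), *Kdm3b* (0.12, 0.103) and *Kdm4c* (-0.16, 0.0575) did not pass. The 4 lower and 2 higher members stand beside 34.8% of all genes called, 20.1% lower and 14.8% higher, and 9 of the 10 had groups that did not overlap, as had 49.3% of all genes.

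The Morc1 effect differed between the ages for *Kdm3a* (difference of log2 effects, P14.5 minus P10.5, -0.82 ± 0.10, edgeR adjusted p = 0.000431), *Kdm4d* (-1.78 ± 0.32, 0.00287) and *Kdm5b* (-0.37 ± 0.10, 0.027), where 8.22% of all genes passed that test and 6.73% passed in the same direction. The last of these was lost in 8 of 12 fits that each left out 1 library (adjusted p up to 0.124). The preliminary pair was not part of that fit. All 12 early meiosis markers were lower in P14.5 KO testis (191 to 222 against 492 to 651 RPKM), as were 9 of 11 pachytene markers (60.8 to 63.2 against 175 to 332) and 7 of 9 germ cell markers (394 to 453 against 986 to 1293), and 10 of 11 Sertoli cell markers were higher (4331 to 5298 against 3295 to 3636). At P10.5 it was 12 of 12 early meiosis markers lower (79.4 to 87.9 against 161 to 164 RPKM), 6 of 9 germ cell markers lower (228 to 261 against 368 to 376) and 6 of 11 Sertoli cell markers higher (3886 to 4335 against 3441 to 3715), with the pachytene markers *Pgk2* and *Adam2* at or near 0. Marker lists not named for these 2 ages are left out here, and the part of cell composition in the members' changes was not tested.

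**Figure D3:**
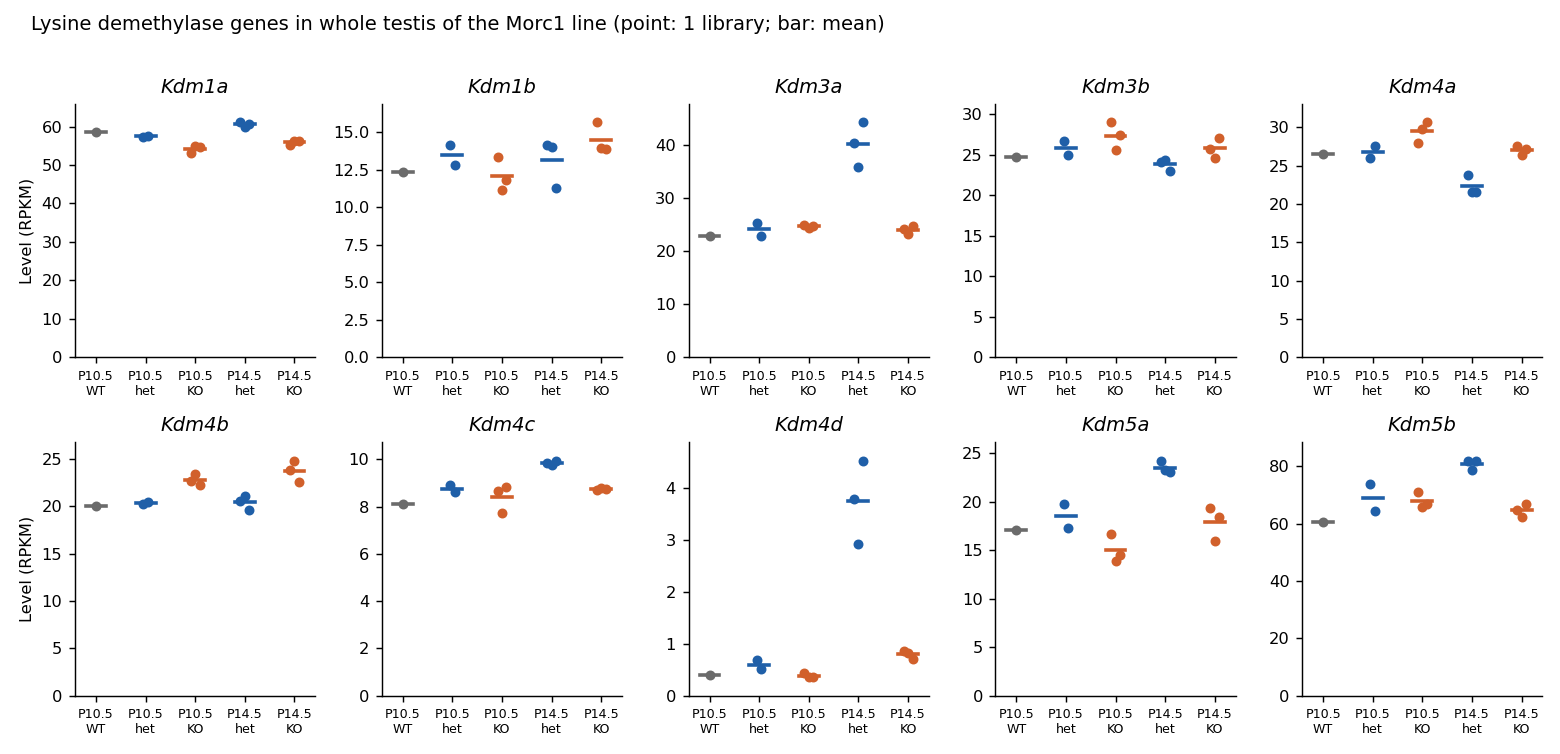
Level of each gene (RPKM, linear axes from 0) in Morc1 whole testis at 2 ages, P10.5 (left) and P14.5 (right), grey for WT, blue for het and orange for KO, without the preliminary pair. Points are libraries and bars means, and *Kdm4d* and *Kdm3a* rise in P14.5 het testis to 2.92 to 4.53 and 35.8 to 44.2 RPKM while the P14.5 KO libraries lie at 0.705 to 0.871 and 23.2 to 24.6.

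Of the other genes of the pathway, 5 of 17 further family members were higher in P14.5 KO testis (*Kdm5d* 0.47, *Jhdm1d* 0.38 and *Kdm5c* 0.26 among them) and 3 lower (*Jarid2* -0.38, *Kdm2a* -0.23, *Kdm2b* -0.22), with a median of 0.09 beside -0.13 for the 10 members and 0.01 for all genes. Of the H3K4 methyltransferase list none of 15 was higher and 4 were lower, *Prdm9* the most (13.1 to 7.27 RPKM, -0.84), with *Men1* (-0.36) and *Wdr5* (-0.26). Of the partners *Rbbp7* (0.17) was among the higher, and *Hdac1* (-0.45) and *Zmym2* (-0.16) were lower. At P10.5 the counts higher and lower in KO testis were 1 (*Hr*, 0.55) and 1 (*Jmjd5*, -0.31) of 17 family members, 0 and 4 of 15 H3K4 methyltransferase genes (*Prdm9* 4.26 to 1.32 RPKM, -1.67) and 2 and 2 of 15 partners (*Rcor2* -0.35).

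In P10.5 DNMT3L KO testis 6 of the 10 genes were called, with *Kdm1a*, *Kdm1b*, *Kdm4d*, *Kdm5a* and *Kdm5b* lower and *Kdm4a* higher. *Kdm1b* was at 8.62, 8.36 and 10.98 RPKM in KO against 14.53, 15.0 and 15.4 in WT and 16.9, 14.55 and 13.5 in het testis, a log2 difference of -0.64 ± 0.09 (edgeR adjusted p = 0.000109). *Kdm1a* was at 46.1, 49.7 and 48.1 RPKM in KO against 57.0 to 62.1 in the 6 controls (-0.27 ± 0.05, 0.000692). No KO library reached the lowest control of either gene. *Kdm5a* was at 11.9, 13.0 and 11.7 RPKM against 15.6 to 21.0 (-0.49 ± 0.08, 0.000427), and *Kdm5b* at 55.4, 52.2 and 58.4 RPKM against 64.2 to 71.7 (-0.26 ± 0.06, 0.00319). *Kdm4d* was at 0.225, 0.249 and 0.350 RPKM against 0.352 to 0.556 (-0.73 ± 0.21, 0.00999), a call lost without KO replicate 1 (0.0523) or with WT controls only (0.0605). *Kdm4a* was higher, at 30.7, 28.6 and 29.7 against 22.2 to 26.1 RPKM (0.35 ± 0.06, 0.000459).

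The remaining members were *Kdm3a* (0.06, edgeR adjusted p = 0.487), *Kdm3b* (0.11, 0.0973), *Kdm4b* (0.19, 0.0757) and *Kdm4c* (-0.04, 0.68), and DESeq2 called 8 of the 10, adding *Kdm3b* (0.0284) and *Kdm4b* (0.0378). Against these 5 lower and 1 higher, 53.9% of all genes were called in this comparison, 29% lower and 24.9% higher. DNMT3L het against WT testis gave no member, none at an unadjusted p under 0.05 and none with DESeq2 (log2 -0.09 to 0.13), where edgeR called 0.00651% of all genes. In KO testis all 12 early meiosis markers were lower (62.7 to 82.2 against 146 to 251 RPKM), all 9 germ cell markers were lower (169 to 207 against 459 to 600) and 8 of 11 Sertoli cell markers were higher (4301 to 4789 against 2777 to 3811), with *Adam2* at or near 0. Differentiating spermatogonia markers were at 117 to 141 against 234 to 283 RPKM (1 of 7 higher, 6 lower), undifferentiated ones at 57.5 to 64.4 against 74.1 to 87.1 (4 of 10 higher, 4 lower) and pachytene markers at 37.3 to 40.6 against 50.7 to 58.1 (1 of 10 higher, 7 lower). Leydig cell markers were at 349 to 385 against 187 to 329 RPKM (2 of 8 higher) and endothelial markers at 44.2 to 50.6 against 29.4 to 41.1 (3 of 6 higher). Epididymis markers summed to 37.7 RPKM in WT replicate 1, the highest testis library, and leaving that library out lost none of the 6 calls. The part of these cells was not tested.

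The effect on *Kdm1b* differed between the lines at P10.5. In Morc1 KO testis *Kdm1b* was at 13.3, 11.1 and 11.8 RPKM against 12.3 (WT), 14.1 and 12.8 (het), overlapping, and the difference of the log2 effects, Morc1 minus DNMT3L, was 0.49 ± 0.13 (edgeR adjusted p = 0.0159). It was the 1 member called, where 17.6% of all genes passed and 9.45% passed in the same direction. The call was lost without Morc1 WT replicate 1 (0.0522), Morc1 KO replicate 1 (0.0555) or DNMT3L KO replicate 2 (0.0529). *Kdm1a* was called in the same direction with DESeq2 (0.17, 0.0357) and library sizes only (0.21, 0.0324). So was *Kdm5b* with DESeq2 (0.28, 0.0331) and library sizes only (0.32, 0.0286). *Kdm4a* was called in the other direction without DNMT3L WT replicate 1 (0.035), het replicate 3 (0.0498) or KO replicate 3 (0.0467). Of the pathway's other genes in DNMT3L KO testis, 3 of 17 family members were higher (*Phf2* 0.40, *Kdm5d* 0.35) and 4 lower (*Mina* -0.82, *Jarid2* -0.56, *2410016O06Rik* -0.48). The H3K4 methyltransferase list had 1 of 15 higher and 9 lower (*Prdm9* -1.82, *Cxxc1* -0.51, *Wdr5* -0.48), with a median of -0.28. The partners had 4 of 15 higher and 6 lower, and *Rcor2*, a CoREST subunit, moved the most, from 29.5 to 10.4 RPKM (-1.46 ± 0.08, 1.28e-07).

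**Figure D4:**
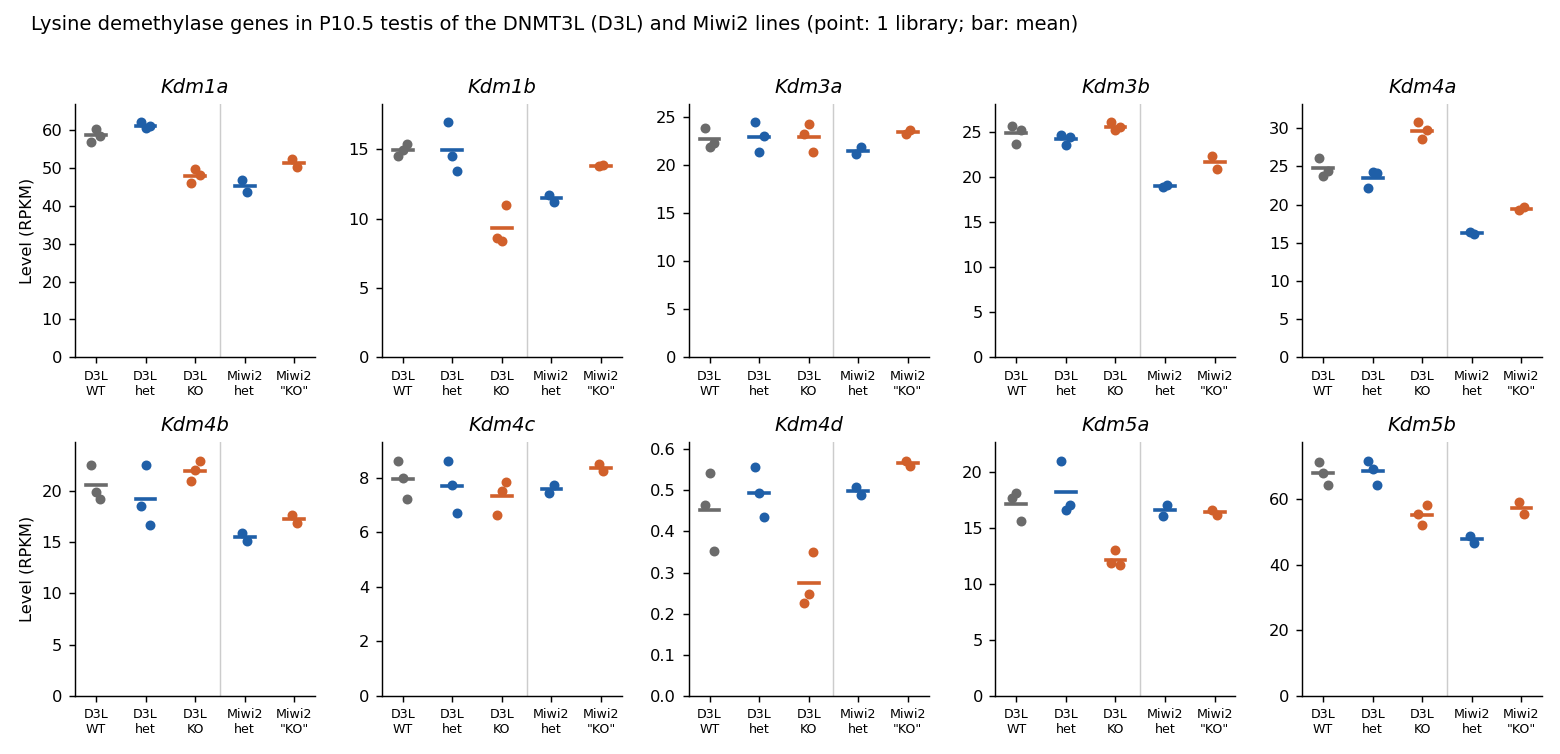
Level of each gene (RPKM, linear axes from 0) in P10.5 testis of the DNMT3L line (left of each panel: WT grey, het blue, KO orange) and the Miwi2 line (right: het blue, labelled KO orange). Points are libraries and bars means, and in DNMT3L KO *Kdm1b* sits at 8.36 to 10.98 RPKM, under all 6 controls at 13.5 to 16.9.

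Between the libraries labelled Miwi2 KO and Miwi2 het no member was called, against 1.23% of all genes, while 5 had an unadjusted p under 0.05 and DESeq2 called 1, *Kdm5b* (0.0431). With the replicate number as a block, *Kdm1a*, *Kdm1b*, *Kdm3b*, *Kdm4a*, *Kdm4b* and *Kdm5b* were called as higher, where 4503 of 15997 genes were called. Whether these replicates were paired is not known. In 9 of the 10, both libraries labelled KO were above both het libraries, where the groups did not overlap for 52.1% of all genes and lay higher for 29.7%. *Kdm1b* was at 13.8 and 13.9 against 11.7 and 11.2 RPKM (log2 0.25 ± 0.06, edgeR adjusted p = 0.0768), *Kdm4a* at 19.3 and 19.6 against 16.3 and 16.1 RPKM (0.25 ± 0.06, 0.0879) and *Kdm5b* at 59.2 and 55.4 against 48.9 and 46.6 RPKM (0.24 ± 0.08, 0.124). *Kdm5a* overlapped, at 16.6 and 16.2 against 16.1 and 17.1 RPKM. Summed fat markers were at 5.93 and 6.12 RPKM in the libraries labelled KO and 25.3 and 28.4 in het (3 of 4 tested lower), and Sertoli cell markers at 2338 and 2402 against 2031 and 2199 (none of 11 called). The remaining marker lists are not given for this pair, and the part of cell composition was not tested. The median log2 difference of the 10 was 0.17 beside 0.01 for all genes, and none of the 3 pathway lists had a member called.

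**Figure D5:**
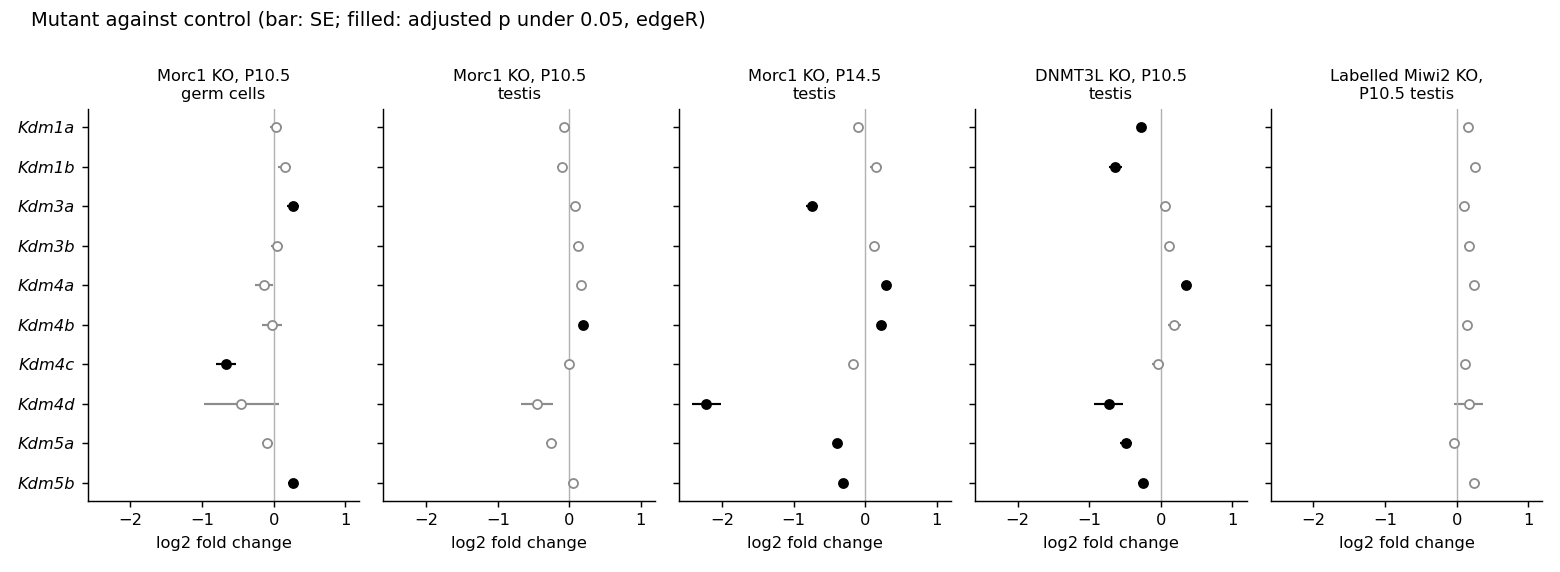
log2 fold change (horizontal axis) of each gene in 5 mutant comparisons, with the mutant named above each panel and bars for SE. Filled points have an edgeR adjusted p under 0.05, 3 in P10.5 germ cells, 1 in P10.5 Morc1 testis, 6 in P14.5 Morc1 testis, 6 in DNMT3L testis and 0 in the Miwi2 pair, and *Kdm4d* at P14.5 (-2.22) lies farthest from 0.

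Over all 27 testis libraries the order by RPKM was steadier than in germ cells. The sets differ in age, since 21 testis libraries were from P10.5 and the others from P14.5, while the sorted libraries spanned 4 stages. *Kdm5b* (65.8 ± 9.38 RPKM, SD, n = 27) and *Kdm1a* (55.6 ± 5.17) came first and second in every group of testis libraries, *Kdm4c* (8.32 ± 0.840) and *Kdm4d* (0.868 ± 1.07) came last, and *Kdm1b* (13.2 ± 2.02) stood just before them. *Kdm3a* (25.3 ± 5.60), *Kdm4a* (25.1 ± 4.04), *Kdm3b* (24.7 ± 2.38) and *Kdm4b* (20.8 ± 2.66) changed places among the groups, as did *Kdm5a* (5th in P14.5 het and in Miwi2 het testis, 7th in the others). Neighbours in this stretch overlapped in some groups and not in others: in P14.5 het testis *Kdm3a* lay apart from *Kdm3b*, and in DNMT3L KO testis *Kdm4a* lay apart from *Kdm3b*. Within a group, neighbours of *Kdm5b* and *Kdm1a* overlapped only in Miwi2 het, where *Kdm5b* was at 48.9 and 46.6 and *Kdm1a* at 46.8 and 43.8 RPKM. Exons of *Kdm5a* share 276 bases with *Ccdc77* and those of *Kdm3b* share 53 bases with *Gm17557*, both on the opposite strand in the mm9 annotation, so reads there are uncertain where counting did not use strand.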

How the data were processed

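RNA was sequenced from sorted germ cells (Ovation Human FFPE kit with murine rRNA depletion) and from whole testis (TruSeq v2), 1 mouse per library. The authors trimmed reads to 50 bp, discarded those that matched rRNA, and kept reads that mapped to 1 place among mm9 genes and repeats, or else the genome, with up to 2 mismatches. HTSeq at its default settings gave the counts per gene, and the authors deposited these raw counts beside RPKM values (reads per kilobase of exon, scaled to mapped reads). The submitters' processing notes also list Bowtie and SAMtools. How strand was handled beyond those defaults was not found in the methods or labels.

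Which genes make up the set, and the gene lists, were chosen with earlier results of these data known, and the members were then found by symbol. Counts were tested with edgeR 4.0.16 (R 4.3.3; filterByExpr, TMM, quasi-likelihood test, Benjamini-Hochberg over all genes tested) in 18 comparisons. Each fit held only the groups compared, except that the 4 het germ cell stages shared 1 fit. Scripts were tested on simulated data. RPKM values gave levels and overlaps. Alternatives were DESeq2 1.42.0, library sizes only, upper-quartile factors, no filter on low counts, the replicate number as a block, other control or stage sets, the preliminary libraries added, and each library left out in turn.

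Names were taken from the lists of further family members, H3K4 methyltransferase genes and partners. Per comparison and list, up to 3 rises and 3 falls past the threshold without overlap were named. For likeness, the 2 genes with the highest Pearson correlation of log2(RPKM + 0.1) were named per member, among genes with a mean of at least 1 RPKM in sorted libraries. Some genes that these rules picked are not reported here. A count of 0 allows up to 3 reads, which covers counting error only. No replicate pair was a copy (lowest chi-square per gene 4.45). The preliminary pair was left out of the main comparisons.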

Additional observations from a re-analysis of the deposited data

Results flagged for a closer look

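*Kdm4a* in P10.5 Morc1 het germ cells had 1 library apart from the other 3, with a gap of 0.837 of the group's whole range (5.17 RPKM against 4.56 to 4.66), where 10 gene and group sets were looked at and chance sets about 1 in 20 apart. The Morc1 effect in testis differed between P14.5 and P10.5 for *Kdm3a* (difference of log2 effects -0.82), *Kdm4d* (-1.78) and *Kdm5b* (-0.37, lost in 8 of 12 fits that left out 1 library, edgeR adjusted p up to 0.124). The Morc1 and DNMT3L effects at P10.5 differed for *Kdm1b* (0.49, lost in 3 of 15 such fits).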

How the results depend on the processing

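The number of members called moved by more than 1.5 times under these alternatives. With DESeq2 it was 1 in place of 0 for Morc1 KO at E18.5 (*Kdm5a*), 2 in place of 1 for Morc1 KO in P10.5 testis, 1 in place of 0 for the libraries labelled Miwi2 KO, 1 in place of 0 for the change of the Morc1 effect between E16.5 and P10.5, and 3 in place of 1 for Morc1 against DNMT3L. With library sizes only, P10.5 Morc1 testis gave 2 and Morc1 against DNMT3L 3. P10.5 Morc1 testis gave 2 with no filter on low counts, 2 with the preliminary libraries added and 0 with het controls only. With only the compared stages in the fit, P10.5 against E16.5 germ cells gave 7 in place of 4, of which 2 were rises (*Kdm4c* and *Kdm5a*). Leaving out each library in turn gave 0 to 3 for P10.5 Morc1 testis and 0 to 2 for Morc1 against DNMT3L. *Kdm3a* in germ cells against testis, which was not called, was called as higher with library sizes only (0.20, edgeR adjusted p = 0.0336) and upper-quartile factors (0.30, 0.00371), changed sign from 0.09 to -0.00117 with no filter, and ran from -0.0287 without testis het replicate 3 to 0.149 without testis het replicate 2. The causes were not tested. Apart from these and from the replicate block below, counts of members held within 1.5 times under the alternatives run.

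Replicate numbers were not taken to pair the samples, since no label ties them and no set of 3 or more pairs correlated above 0.1 throughout (-0.633 to 0.518 over all pairs). The Miwi2 libraries, with only 2 pairs, were at 0.518, a hint of pairing from the data. With the replicate block, P10.5 Morc1 testis gave 0 members in place of 1, and the Miwi2 pair, of 2 libraries a group, gave 6 in place of 0. *Kdm5a* between E18.5 and P2.5 also lost its call with the block (edgeR adjusted p = 0.0522), and no other member's call changed with it.

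Counts of all genes moved by more than 1.5 times too. With DESeq2 they were 296 in place of 6 at E18.5, 21 in place of 7 at P2.5, 2 in place of 1 for DNMT3L het, 378 in place of 197 for Miwi2 and 473 in place of 290 for the Morc1 effect between E16.5 and P10.5. With no filter they were 180 in place of 70 at E16.5, 83 at E18.5, 27 at P2.5 and 507 for that effect. With the block they were 174 at E16.5, 46 at E18.5, 30 at P2.5, 1200 in place of 2326 in P10.5 Morc1 testis, 0 for DNMT3L het and 4503 for Miwi2. With only the compared stages they were 1220 in place of 3151 for E18.5 against E16.5 and 3557 in place of 6600 for P2.5 against E18.5. Leaving out 1 library gave 74 to 171 in place of 70 at E16.5 (171 without KO replicate 2), 0 to 190 at E18.5 (190 without het replicate 1, 0 without either KO library), 0 to 70 at P2.5 (70 without KO replicate 2), 922 to 2352 in P10.5 Morc1 testis (922 without KO replicate 3) and 340 to 952 for Miwi2 (952 without het replicate 2). It gave 0 to 1 for DNMT3L het, 3517 to 5001 in place of 5323 in P14.5 testis, 1731 to 4795 for E18.5 against E16.5, 130 to 312 for the Morc1 effect between E16.5 and P10.5, 772 to 1746 in place of 1287 for that between P10.5 and P14.5 and 1753 to 4021 in place of 2797 for Morc1 against DNMT3L, so the shares of all genes set beside the members move with single libraries. Depth limits *Kdm4d* in sorted cells, and 2 libraries a group limit E16.5, E18.5 and Miwi2.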
